A study of Mus musculus with 6 samples.

Results

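ADAM23, ADAM22 and ADAM11 are membrane proteins of the ADAM family (a disintegrin and metalloproteinase) that lack the zinc-binding motif of the active proteases, and the LGI proteins (leucine-rich glioma-inactivated) are secreted ligands that bind them. The genes described here are the 3 receptor genes Adam23, Adam22 and Adam11 and the 4 ligand genes Lgi1, Lgi2, Lgi3 and Lgi4, that is, 7 of the 55450 genes in the deposited table, found by their symbols. They were chosen by the Adam23 counts of these same libraries, which were higher in Myrf-kd, so the Adam23 values below describe that choice and are given with no test. RNA of whole retina was sequenced from C57BL/6 mice at 8 weeks of age, in 3 libraries labelled Myrf-kd, from Myrf +/− mice, and 3 labelled wild type (WT). Which part of Myrf is altered, in which cells, and whether animals were pooled is not in the labels. They also do not name separate animals behind the 3 samples of a group, so a p-value here measures the spread between libraries, which may be technical.

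LGI proteins carry leucine-rich repeats and a propeller of EPTP repeats, by which they dock onto the extracellular part of their ADAM receptor. At brain synapses LGI1 bridges ADAM23 and ADAM22, and ADAM22 holds the scaffold protein PSD-95 and, through it, AMPA receptors in place. The same receptors are needed for placing Kv1 potassium channels on axons and terminals, and loss of LGI1 or of ADAM22 causes epilepsy in humans and mice.

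The libraries summed to 62092882 to 67766951 units in Myrf-kd and 50695091 to 70298511 units in WT. About 4 units of estimated count were taken per fragment. Fragment numbers below are the units divided by 4, so they are approximate. Values given as 3 numbers follow the replicates 1, 2 and 3 of the labels. Myrf itself had 0.279, 0.382 and 0.351 FPKM (fragments per length of transcript and depth of library, the deposited level) in Myrf-kd, against 0.359, 0.397 and 0.463 FPKM in WT. The groups overlapped, so this gene did not separate the labels. By Xist and Y-linked genes the replicate numbered 3 in each group was female and the other 4 libraries were male. Rod genes marked the libraries as retina, with Gnat1, the rod transducin gene, at a mean of 3200 FPKM. The summed level of 6 cornea and surface epithelium genes was 1.59, 6.28 and 5.08 CPM in Myrf-kd, against 14, 19 and 15 CPM in WT (CPM, units scaled to library size with TMM factors). Myrf-kd 3 stood apart on the first principal component, at 34.2 against −16.3 to −0.886 in the other 5 libraries. The share of these differences in any result below was not tested.

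Adam23 (ENSMUSG00000025964; GRCm38, chromosome 1, 63445891 to 63596276, plus strand) encodes a neuronal receptor of LGI1, LGI2 and LGI3 that is placed on the presynaptic side in the usual model. It was at 50.1, 53.9 and 53.7 CPM in Myrf-kd, against 18.5, 19.9 and 19.3 CPM in WT. The 3 Myrf-kd libraries lay close together and far above the 3 WT libraries, with no overlap. Behind these values stood 804, 845 and 912 fragments in Myrf-kd and 298, 247 and 330 fragments in WT. The means were 52.6 ± 2.14 CPM in Myrf-kd, against 19.2 ± 0.739 CPM in WT (SD, n = 3 each), a fold of 2.73, or 1.45 ± 0.08 (SE) on the log2 scale by edgeR. The SD was 4.07% of the mean in Myrf-kd and 3.85% in WT. Of 13673 genes tested, 0.0439% passed an adjusted p of 0.05 by edgeR, 0.0293% as higher and 0.0146% as lower in Myrf-kd. The groups did not overlap in 14.6% of the genes, with Myrf-kd above in 7.13% and below in 7.5%. Nothing is read from these shares for Adam23, because the same contrast chose it.

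Adam23 was also the member whose place in the test rested on the Myrf-kd libraries. Genes needed a mean of at least 1 FPKM over the 6 libraries. Adam23 was at 2.40, 2.62 and 2.59 FPKM in Myrf-kd, against 0.890, 0.934 and 0.917 FPKM in WT. All WT values lay below 1, so a gene at the WT level in every library would have been left out. All 7 members passed, and the lowest of them, Lgi1, had a mean of 1.06 FPKM over the 6 libraries. Without a filter the log2 fold change of Adam23 was again 1.45. Of the 6 cornea and surface epithelium genes 3 were tested, and all 3 were lower in estimate in Myrf-kd without overlap, with a median log2 fold change of −2.23. By edgeR 0 of the 3 passed, and 3 had an unadjusted p under 0.05, where 0.0439% and 7.49% of all tested genes did. In 7.5% of all tested genes every Myrf-kd library lay below every WT library. Krt12 was at 0.109, 2.34 and 0.810 CPM in Myrf-kd against 4.70, 3.97 and 6.59 CPM in WT. Krt5 was listed at 0 in Myrf-kd 1, and Krt14 at 0 in Myrf-kd 1 and WT 1. Their part in the Adam23 values was not tested.

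**Figure D1:**
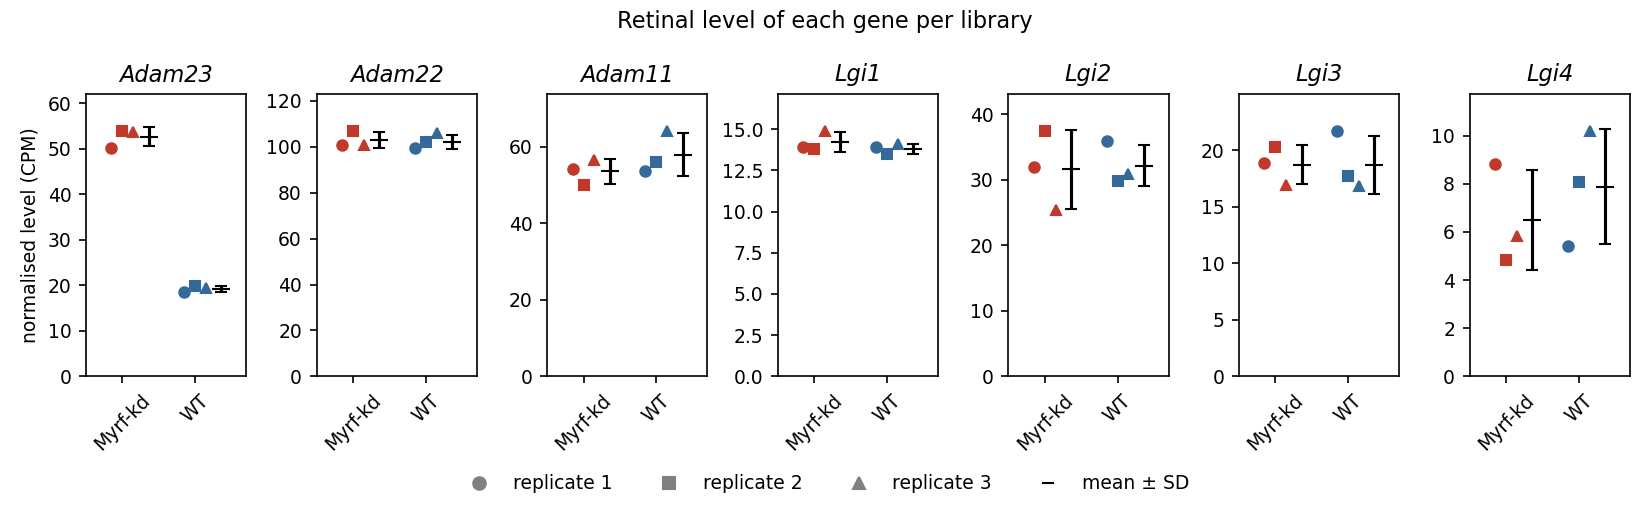
Level of each gene in CPM (vertical axes from 0, a scale per gene) in the 3 Myrf-kd and the 3 WT libraries, with the marker shape giving the replicate number and the bar the mean ± SD. Adam23 sits at 50.1 to 53.9 CPM in Myrf-kd and 18.5 to 19.9 CPM in WT, and the groups overlap in the other 6 genes.

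The start of Adam23 and that of Adam22, its closest partner at the synapse, are shown because the groups did not overlap for the first gene and overlapped for the second. RefSeq windows (GRCm38.p6) of 250 bases before to 50 bases after the start were found for 4 of the 7 members. Capitals mark CpG dinucleotides, the sites of DNA methylation. The Adam23 window is chr1:63445641-63445940 on the plus strand and the Adam22 window is chr5:8368111-8368410 on the minus strand.
Adam23: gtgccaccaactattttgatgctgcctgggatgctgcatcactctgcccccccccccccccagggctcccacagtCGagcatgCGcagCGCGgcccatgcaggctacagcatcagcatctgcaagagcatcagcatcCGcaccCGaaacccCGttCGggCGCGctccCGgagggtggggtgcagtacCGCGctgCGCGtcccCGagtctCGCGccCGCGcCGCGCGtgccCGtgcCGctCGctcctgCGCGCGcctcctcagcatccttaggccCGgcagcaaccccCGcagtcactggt
Adam22: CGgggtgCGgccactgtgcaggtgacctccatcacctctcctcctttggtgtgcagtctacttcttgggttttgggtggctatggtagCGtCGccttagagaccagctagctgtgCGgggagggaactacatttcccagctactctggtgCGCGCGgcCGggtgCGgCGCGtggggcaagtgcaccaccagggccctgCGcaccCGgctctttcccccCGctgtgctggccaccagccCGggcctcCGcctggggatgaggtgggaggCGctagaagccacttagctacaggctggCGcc
The Adam23 window held 31 CpG and 70.0% G or C, and 10.6% of the 32851 RefSeq windows of this length held as many CpG. That of Adam22 held 19 CpG, against 27 for Lgi2, 13 for Lgi1 and a median of 7 over all windows. The letters CTGGCAC and CTGGTAC, forms of the motif described for MYRF in rodent oligodendrocytes, were searched on both strands. They were found in 0 of the 4 windows and in 7.10% of all windows. Methylation and binding at these windows were not analysed here.

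The deposited gene values do not separate transcripts. The table lists 12 Adam23 transcripts, of which GENCODE M21 gives 3 as protein coding and 7 as retained intron. The ratio of estimated count to FPKM gave the length by which a gene's FPKM had been divided. For Adam23 it was 17.9 kb, the length of all its annotated exons joined (17907 bases), whereas its longest coding transcript has 6426 bases. For Lgi2, with 2 transcripts, the length was 6.53 kb and the longest coding transcript has 6456 bases. The FPKM of Adam23 is therefore lower, against that of Lgi2, than a level per length of coding transcript would be. Whether the added Adam23 fragments came from coding or from intron-retaining transcripts was not tested.

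Adam22 (ENSMUSG00000040537; chromosome 5, 8072352 to 8368160, minus strand) encodes the receptor that binds PSD-95 and is placed on the postsynaptic side in the usual model. It was the most abundant member in CPM, at 101, 107 and 101 CPM in Myrf-kd against 99.6, 102 and 106 CPM in WT. The groups overlapped, with the highest value in Myrf-kd 2 and the lowest in WT 1. The fold was 1.01, with a 95% interval from 0.915 to 1.11, and Adam22 did not pass (edgeR adjusted p = 0.975). The Adam23 fold of 2.73 comes from the contrast that chose Adam23, so nothing is read from its distance to this Adam22 interval.

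Adam11 (ENSMUSG00000020926; chromosome 11, 102761439 to 102780262, plus strand) encodes the third receptor of this kind, which in mouse cerebellum is needed for Kv1 channels at basket cell terminals. It was at 54.2, 50.1 and 56.6 CPM in Myrf-kd, against 53.7, 56.0 and 64.2 CPM in WT. WT 3 held the highest value and the groups overlapped. The fold was 0.925 (95% interval 0.796 to 1.08), and Adam11 did not pass (edgeR adjusted p = 0.763).

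The proportion between the receptors followed from these values. The ratio of Adam23 to Adam22 in FPKM was 0.397, 0.403 and 0.427 in Myrf-kd, against 0.148, 0.156 and 0.146 in WT. Per kb of the longest coding transcript the same ratio averaged 0.734 ± 0.0281 in Myrf-kd and 0.270 ± 0.00932 in WT (SD, n = 3 each). On that scale Adam23 made up 26.6% to 28.1% of the summed level of the 3 receptors in Myrf-kd and 11.1% to 12.3% in WT. In FPKM its share averaged 15% ± 0.579 in Myrf-kd and 5.82% ± 0.347 in WT (SD, n = 3 each). These ratios rest on the Adam23 values that chose the genes and have no test. The ratio of Adam11 to Adam22 in FPKM, which Adam23 does not enter, averaged 1.32 ± 0.122 in Myrf-kd and 1.43 ± 0.0946 in WT (SD, n = 3 each), and the groups overlapped.

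Lgi1 (ENSMUSG00000067242; chromosome 19, 38264536 to 38312214, plus strand) encodes the ligand of ADAM22 and ADAM23 whose mutation causes a lateral temporal lobe epilepsy in humans. It was at 13.9, 13.8 and 14.9 CPM in Myrf-kd, against 13.9, 13.5 and 14.1 CPM in WT. The groups overlapped. It varied little between libraries, with an SD of 4.22% of the mean in Myrf-kd and 2.01% in WT. The fold was 1.03 (95% interval 0.882 to 1.19), and Lgi1 did not pass (edgeR adjusted p = 0.930). The gene Gm42723 on the opposite strand shares 532 exon bases with Lgi1 and had means of 8.00 units in Myrf-kd and 4.33 units in WT, against 671 to 1009 units of Lgi1.

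Lgi2 (ENSMUSG00000039252; chromosome 5, 52533517 to 52566462, minus strand) encodes a ligand whose truncation causes a juvenile epilepsy in dogs. It was at 32.0, 37.5 and 25.4 CPM in Myrf-kd, against 35.9, 29.9 and 30.9 CPM in WT. Myrf-kd held both the highest and the lowest value. The fold was 0.981 (95% interval 0.758 to 1.27; edgeR adjusted p = 0.974). Its sign turned when Myrf-kd 3 was left out, to a log2 fold change of 0.11 (edgeR adjusted p = 0.830).

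Lgi3 (ENSMUSG00000033595; chromosome 14, 70530685 to 70538324, plus strand) encodes a ligand that in mouse brain comes from oligodendrocytes and works with ADAM23 at axonal Kv1 channels. It was at 18.9, 20.3 and 16.9 CPM in Myrf-kd, against 21.7, 17.7 and 16.8 CPM in WT. Replicate 2 was highest and replicate 3 lowest in Myrf-kd for Lgi2 and Lgi3 alike, WT 1 was highest in WT for both, and the groups overlapped. The fold was 0.998 (95% interval 0.804 to 1.24; edgeR adjusted p = 0.996). Of 7 oligodendrocyte markers listed, 5 lay below the filter, and Mobp and Opalin were listed at 0 in 5 of the 6 libraries. Mbp was at 44.8, 49.1 and 44.6 CPM in Myrf-kd against 47.2, 54.8 and 51.9 CPM in WT. Whether Mbp came from oligodendrocytes here was not tested. In RNA of whole retina, fewer cells of a type and less RNA per cell cannot be told apart.

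Lgi4 (ENSMUSG00000036560; chromosome 7, 31059342 to 31070935, plus strand) encodes the ligand that Schwann cells use with axonal ADAM22 in mouse nerve myelination. It was the lowest member in CPM and the most variable, at 8.83, 4.83 and 5.82 CPM in Myrf-kd against 5.40, 8.07 and 10.2 CPM in WT. Each group held low and high libraries. The fold was 0.825 with a wide 95% interval, 0.499 to 1.36, which spans both lower and higher levels (edgeR adjusted p = 0.817). In the male libraries alone the log2 fold change was 0.02, against −0.28 in all libraries. Leaving out Myrf-kd 1 or WT 1 gave −0.56 or −0.49, and leaving out Myrf-kd 2 or WT 3 gave −0.10 or −0.05. Between 76 and 174 fragments per library stood behind these values. The gene Fxyd3 on the opposite strand shares 2059 exon bases with Lgi4 and had means of 133 units in Myrf-kd and 106 units in WT, against 303 to 695 units of Lgi4. No source used here gives the strand of the libraries, and reads in that stretch cannot be assigned to either gene. The 4 Schwann cell markers summed to 0.575 to 1.61 CPM in Myrf-kd and 0.915 to 1.63 CPM in WT, and 0 of the 4 reached the filter.

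**Figure D2:**
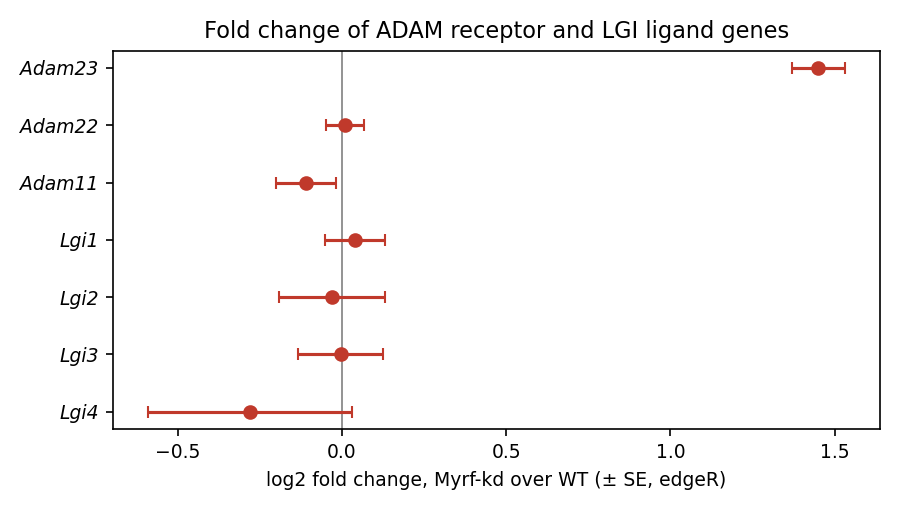
Log2 fold change of Myrf-kd over WT (horizontal axis) for the 7 genes, from edgeR, with bars of ± 1 SE. Adam23 lies at 1.45 and the other 6 lie between −0.28 and 0.04, with the widest bar on Lgi4.

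Of the 6 members other than Adam23, 0 passed by edgeR, 0 had an unadjusted p under 0.05 and 0 had groups that did not overlap, where 0.0439%, 7.49% and 14.6% of all tested genes did. By DESeq2, limma voom and limma on log2(FPKM + 1) the calls were also 0 of 6. Their fold changes lay between 0.825 and 1.03, with 2 estimates higher and 4 lower in Myrf-kd. The smallest adjusted p of any of them over all alternatives was 0.592 by edgeR, for Lgi4 without Myrf-kd 1.

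Between the genes, levels are compared per length. In FPKM the order in Myrf-kd was Adam11 (8.17 ± 0.449), Adam22 (6.20 ± 0.267), Lgi2 (4.19 ± 0.829), Lgi3 (4.15 ± 0.408), Adam23 (2.54 ± 0.12), Lgi4 (1.22 ± 0.382) and Lgi1 (1.08 ± 0.0433; SD, n = 3). In WT it was Adam11 (8.72 ± 0.806), Adam22 (6.09 ± 0.157), Lgi2 (4.22 ± 0.479), Lgi3 (4.10 ± 0.617), Lgi4 (1.46 ± 0.437), Lgi1 (1.04 ± 0.0309) and Adam23 (0.914 ± 0.0222; SD, n = 3). Lgi2 and Lgi3 were not separated beyond their spread in either group, nor were Lgi4 and Lgi1. Adam23 ranked 5 of 7 in Myrf-kd and 7 in WT.

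The order changed with the length used. In CPM per kb of the longest coding transcript, a scale added after seeing the data, Adam23 ranked 3 in Myrf-kd at 8.18 ± 0.333 and 5 in WT at 2.99 ± 0.115 (SD, n = 3 each). On it Adam22 and Adam11 overlapped at the top, at 11.1 ± 0.386 and 10.5 ± 0.642 in Myrf-kd and at 11.1 ± 0.322 and 11.4 ± 1.08 in WT (SD, n = 3 each). Lgi3 was then at 5.89 ± 0.543 in Myrf-kd and 5.91 ± 0.811 in WT, so that Adam23 lay above Lgi3 in Myrf-kd and below it in WT. On this scale the 4 ligands summed to 14.9, 15.2 and 12.6 in Myrf-kd, against 15.5, 14 and 14.4 in WT, and the groups overlapped. The 3 receptors summed to 29.4, 29.8 and 30.4 in Myrf-kd, against 24.2, 25.1 and 27.0 in WT, a sum that Adam23 enters. In FPKM the receptor sums overlapped, at 16.6 to 17.3 in Myrf-kd and 15.1 to 16.8 in WT.

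**Figure D3:**
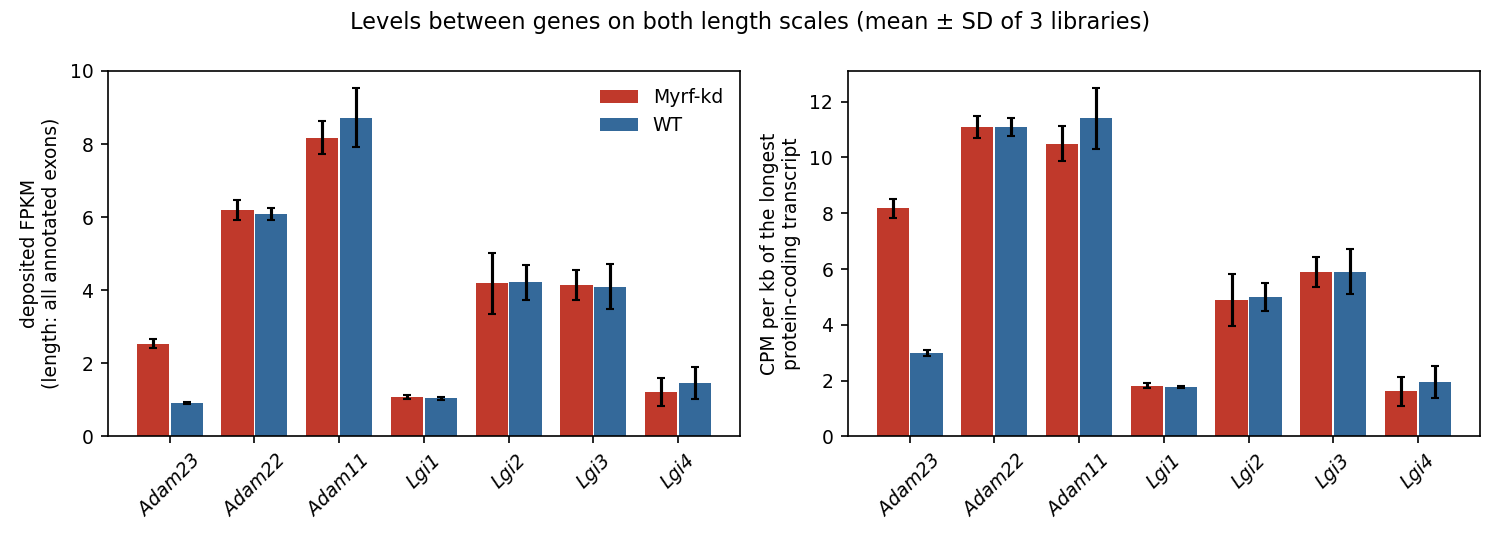
Mean level ± SD of 3 libraries for the 7 genes in Myrf-kd (left bar of each pair) and WT (right bar), as deposited FPKM (left panel) and as CPM per kb of the longest protein-coding transcript (right panel). Adam23 in Myrf-kd is at 2.54 FPKM, below Lgi2 and Lgi3, and at 8.18 CPM per kb, above both.

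The proteins that meet this complex were described next, from 8 lists chosen with earlier results of these data known. Of 41 genes listed, 37 were tested, and 0 passed by edgeR (3 at an unadjusted p under 0.05), by DESeq2 or by limma voom. Of all tested genes 0.0439% passed by edgeR and 7.49% had an unadjusted p under 0.05. Estimates were higher in 15 and lower in 22, with a median log2 fold change of −0.03, against 0.004 over all genes tested. The groups did not overlap in 6 of the 37, where 14.6% of all tested genes had groups that did not overlap.

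The MAGUK scaffolds, which hold ADAM22 and AMPA receptors at the membrane, had 3 of 4 estimates lower in Myrf-kd and a median log2 fold change of −0.16. Dlg4, which encodes PSD-95, was at 741, 690 and 677 CPM in Myrf-kd against 753, 893 and 834 CPM in WT (edgeR adjusted p = 0.666). Dlg1, which encodes SAP97, was at 178, 169 and 150 CPM in Myrf-kd against 189, 196 and 195 CPM in WT (edgeR adjusted p = 0.666). In both genes, and in Dlg3 with a log2 fold change of −0.10, every Myrf-kd library lay below every WT library, as in 7.5% of all tested genes. Dlg2, which encodes PSD-93, ran the other way at 0.40 ± 0.21 (SE) and overlapped between groups, with 173 CPM in Myrf-kd 2 and 307 CPM in Myrf-kd 1. Of the 4 scaffolds 0 passed by edgeR, where 0.0439% of all tested genes did, and 0 passed by DESeq2. An unadjusted p under 0.05 by edgeR was found in 2 of the 4 and in 7.49% of all tested genes. That count was 0 in the male libraries alone, without WT 2 and without WT 3. It was 1 with a replicate block or without Myrf-kd 3, 3 by DESeq2, and 2 under the other alternatives.

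The Kv1 potassium channel genes, whose proteins depend on ADAM receptors for their place on axons, had 5 of 7 tested estimates higher and a median log2 fold change of 0.05. Kcna4, a pore-forming subunit, was at 8.41, 9.42 and 13.7 CPM in Myrf-kd against 7.96, 6.90 and 8.01 CPM in WT (edgeR adjusted p = 0.681). Its groups did not overlap, and Myrf-kd 3 held the highest value. The other genes with the smallest p were the subunit genes Kcnab3, Kcnab2 and Kcna6, with log2 fold changes of −0.06, 0.05 and 0.26. Of the 7 genes 0 passed and 0 had an unadjusted p under 0.05 by edgeR, where 0.0439% and 7.49% of all tested genes did. Kcna3 lay below the filter.

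AMPA receptor and TARP genes, which encode the glutamate receptors and the auxiliary subunits that tie them to PSD-95, had 5 of 9 tested estimates higher and 4 lower, and their median was 0.02 on the log2 scale. Gria4 was at 84.1, 85.2 and 91.1 CPM in Myrf-kd against 78.9, 80.7 and 82.5 CPM in WT, without overlap (edgeR adjusted p = 0.703). Cacng3, Cacng2 and Gria3 had log2 fold changes of −0.16, 0.13 and 0.29. None of the 9 passed, and 0 had an unadjusted p under 0.05 by edgeR, where 0.0439% and 7.49% of all tested genes did. The genes of the axonal adhesion complex that holds Kv1 channels beside nodes had 5 of 5 estimates lower, with a median of −0.08. Cntn1, Cntn2, Epb41l3 and Cntnap2 had log2 fold changes of −0.08, −0.35, −0.12 and −0.04, and in all 5 genes the groups overlapped. Without WT 2, 2 of the 5 estimates were lower and the median was 0.03, and with total count scaling 4 of 5 were lower.

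The 14-3-3 genes, whose proteins bind the cytoplasmic tail of ADAM22, had 6 of 7 estimates lower and a median log2 fold change of −0.05. Ywhaz was at 291, 259 and 249 CPM in Myrf-kd against 435, 332 and 286 CPM in WT. The groups overlapped, and Ywhaz did not pass (edgeR adjusted p = 0.666). Ywhag, Ywhab and Sfn had log2 fold changes of −0.05, −0.05 and −0.15, and of these only Ywhag had groups that did not overlap. The Nogo receptor genes had 3 of 3 estimates higher, with log2 fold changes of 0.25 for Rtn4r, whose protein has been reported to bind LGI1, 0.11 for Rtn4rl1 and 0.16 for Rtn4rl2. Their groups overlapped and 0 passed by edgeR, with 0 at an unadjusted p under 0.05, where 0.0439% and 7.49% of all tested genes did. Without Myrf-kd 3, 2 of the 3 estimates were higher.

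Integrin alpha v beta 3 has been reported to bind the disintegrin domain of human ADAM23. Itgav, its alpha chain gene, was at 56.0, 64.4 and 9.86 CPM in Myrf-kd against 58.3, 65.0 and 65.6 CPM in WT. A single library, Myrf-kd 3, was low, and the log2 fold change of −0.54 became −0.06 without it. Itgb3 lay below the filter. Adgrv1, which encodes a large adhesion receptor that shares EPTP repeats with the LGI proteins, was at 319, 323 and 230 CPM in Myrf-kd against 298, 334 and 290 CPM in WT (edgeR adjusted p = 0.894). Tspear, the other gene of that repeat family, lay below the filter.

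**Figure D4:**
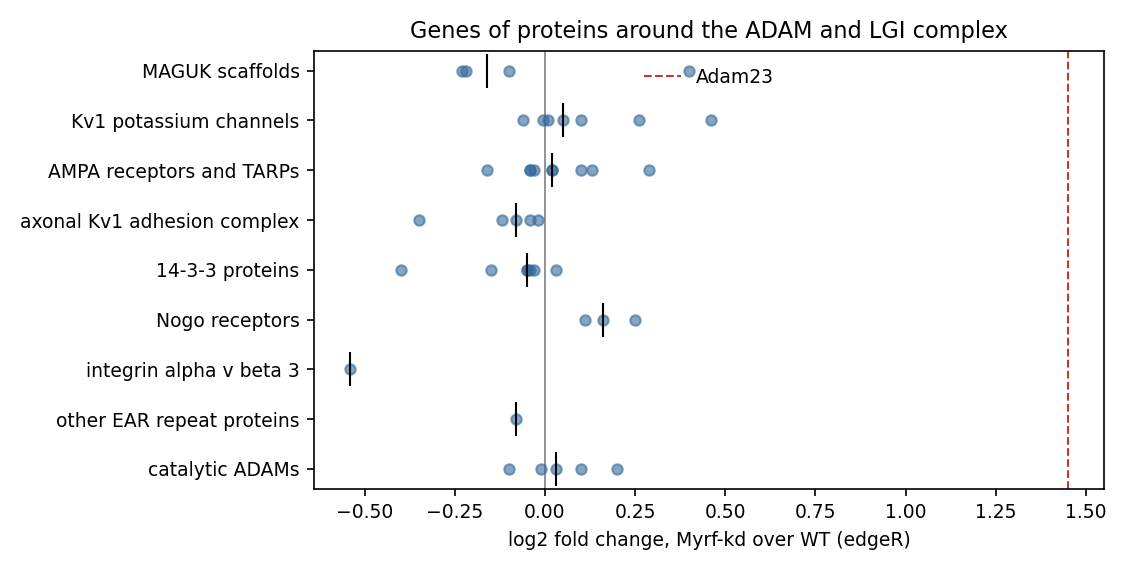
Log2 fold change of Myrf-kd over WT by edgeR (horizontal axis) for the tested genes of each list (a dot per gene, a black tick at the median), with the Adam23 value as a dashed line. The dots lie between −0.54 and 0.46, left of Adam23 at 1.45.

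Other ADAM genes were set beside the receptors. Of 9 catalytic ADAM genes, 5 were tested, with 3 estimates higher and 2 lower and a median log2 fold change of 0.03. Adam17, the sheddase of TNF, and Adam10, the sheddase of Notch, had log2 fold changes of 0.20 and 0.03, and Adam8 and Adam9 of 0.10 and −0.10. Of the 5 genes 0 passed and 0 had an unadjusted p under 0.05 by edgeR, where 0.0439% and 7.49% of all tested genes did. Of 5 other ADAM genes without the catalytic motif 0 reached the filter, and together they summed to 2.71 to 3.17 CPM in Myrf-kd and 2.82 to 3.92 CPM in WT. Adam29 was listed at 0 in all libraries, as was the catalytic gene Adam28.

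Within 1 Mb of the start of Adam23 the table holds 49 other genes, of which 10 were tested. By edgeR 0 of these 10 passed and 2 had an unadjusted p under 0.05, where 0.0439% and 7.49% of all tested genes did. Estimates were higher in 3 and lower in 7, and the median was −0.04 on the log2 scale. The groups did not overlap in 2 of the 10, where they did not in 14.6% of all tested genes. The nearest tested gene on the right, Fastkd2, begins 134 kb beyond the end of Adam23, encodes a mitochondrial RNA-binding protein and was at 21.1, 25.6 and 20.2 CPM in Myrf-kd against 20.8, 19.4 and 21.5 CPM in WT (edgeR adjusted p = 0.804). The nearest on the left, Eef1b2, ends 265 kb before Adam23, encodes a translation elongation factor subunit and had a log2 fold change of −0.12 ± 0.08 (SE). The largest estimate, named after its value was seen, was that of Gm27390, a short noncoding gene inside Eef1b2 listed at 83, 69 and 2 units in Myrf-kd against 1, 2 and 1 units in WT. It passed by DESeq2 (adjusted p = 0.0323) and by edgeR without Myrf-kd 3 (adjusted p = 0.0261), and under none of the other alternatives in which it was tested. The lowest estimate, also named after its value was seen, was −1.01 for Gm26457, another short gene inside Eef1b2. It was listed at 14, 9 and 9 units in Myrf-kd against 24, 15 and 22 units in WT, without overlap (edgeR adjusted p = 0.666).

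**Figure D5:**
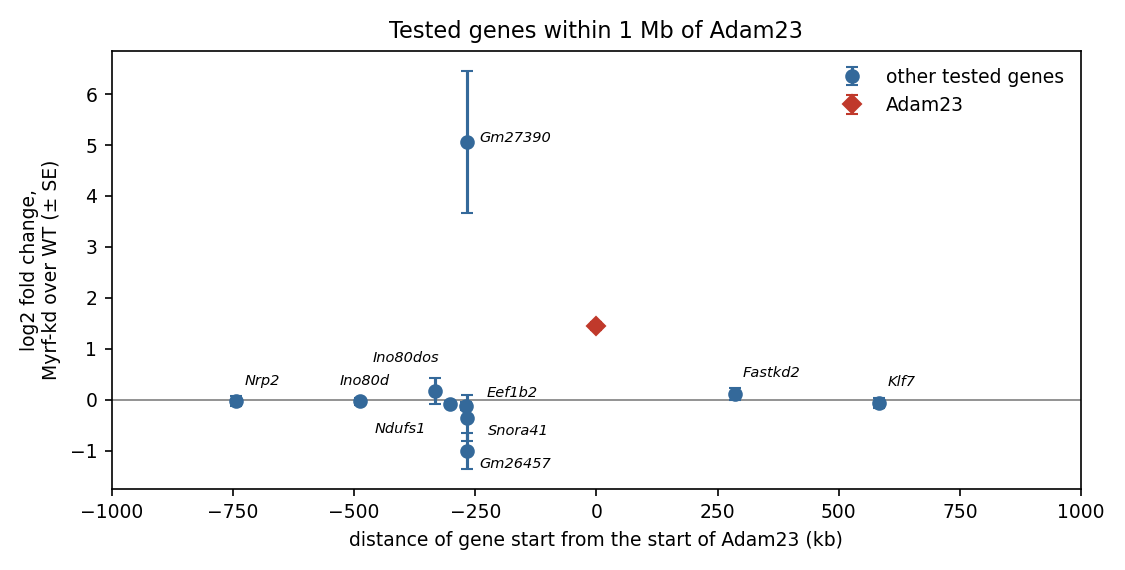
Log2 fold change of Myrf-kd over WT ± SE by edgeR (vertical axis) against the distance of each tested gene's start from the start of Adam23 in kb (horizontal axis). Adam23 lies at 1.45, the larger neighbouring genes lie near 0, and the high point with the long bar is Gm27390, at most 83 units in a library. The point at −1.01 is Gm26457, at most 24 units in a library.

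The genes whose profile over the 6 libraries was most like that of Adam23 were found by the root mean square difference of log2(CPM + 1), centred per gene, over all genes tested. Synpr, which encodes a synaptic vesicle protein, was nearest with a difference of 0.140, and was at 227, 233 and 227 CPM in Myrf-kd against 102, 109 and 99.5 CPM in WT. Next came the noncoding gene Gm47484 (0.288), the small Maf gene Mafg (0.308), the processed pseudogene Gm10132 (0.309), whose reads may belong to its parent gene, and the RNA-binding protein gene Rbm42 (0.328). The median over all genes tested was 0.715. Of the other members, Lgi1 was nearest at 0.688 and Lgi4 farthest at 0.889. This is a description over libraries that chose Adam23 and carries no test.

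Over 13 marker lists of retinal cell types and neighbouring tissues, 50 of 71 genes were tested and 0 passed by edgeR, with 5 at an unadjusted p under 0.05, where 0.0439% and 7.49% of all tested genes did. Estimates were lower in 33 of the 50 and higher in 17, and the groups did not overlap in 5, where they did not in 14.6% of all tested genes. The 6 rod markers summed to 26500 to 29400 CPM in Myrf-kd, against 30200 to 47800 CPM in WT, without overlap. Of 5 markers of the retinal pigment epithelium, the layer behind the photoreceptors, 4 were tested and all 4 were lower in estimate, with a median of −0.38 on the log2 scale, and 0 passed by edgeR, with 0 at an unadjusted p under 0.05. By edgeR 3 of the 4 had an unadjusted p under 0.05 in the male libraries alone, where 532 of 13671 genes did. Without Myrf-kd 3 it was again 3, where 903 of 13673 genes did. With a term for sex or for the replicate number it was 2, and without WT 1 or by DESeq2 it was 1. Under the other alternatives it was 0, and 0 passed under any. The sums of the 5 pigment epithelium markers overlapped, at 110 to 163 CPM in Myrf-kd and 148 to 196 CPM in WT. The 7 lens genes summed to 1.65, 0.558 and 62.1 CPM in Myrf-kd, against 21.2, 14.3 and 24.2 CPM in WT, with Myrf-kd 3 above and the other Myrf-kd libraries below every WT library. Of inner retinal neurons, 7 retinal ganglion cell markers summed to 956 to 997 CPM in Myrf-kd and 955 to 1040 CPM in WT, and their median log2 fold change was −0.01. The 5 amacrine cell markers summed to 722 to 774 CPM in Myrf-kd and 739 to 769 CPM in WT, and the 6 bipolar cell markers to 1220 to 1430 CPM in Myrf-kd and 1260 to 1420 CPM in WT. The sums of these inner neurons overlapped between the groups. The part of any cell type in the Adam23 values was not tested.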

How the data were processed

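For each gene and library the authors deposited an FPKM, which is 0.0001 where there is no signal, and an estimated count. The deposited estimated counts are whole numbers, taken as about 4 units per fragment, so rounding changed none. The submitters' processing notes list GRCm38 as the build and, among tools, StringTie 1.3.0, HISAT2 2.0 and Bowtie 0.12.2, without saying what each did.

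The estimated counts were tested with edgeR 4.0.16 (quasi-likelihood, two-sided, TMM scaling, a genotype term alone) over the 13673 genes whose FPKM averaged 1 or more, with Benjamini-Hochberg adjustment and a threshold of 0.05. Intervals are 95%, from the SE and a t distribution with 6.84 degrees of freedom. Alternatives were DESeq2 1.42.0, limma 3.58.1, other scalings and filters, a replicate block, sex, and the omission of each library. The members and lists were chosen with earlier results of these data known. Named genes are the members, up to 4 genes per partner list with the smallest p, the nearest tested neighbours, the 5 nearest profiles and, of marker lists, the genes with the highest FPKM or at 0. The edgeR step was tested on simulated counts. Transcript lengths come from GENCODE M21 and promoter windows from RefSeq. Protein sequences were not analysed here. Some marker genes are not reported here.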

Additional observations from a re-analysis of the deposited data

How the results depend on the processing

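The log2 fold change of Adam23 lay between 1.42 and 1.49 when each library was left out in turn, and was 1.44 in the male libraries alone. It was 0.89 by limma on log2(FPKM + 1) and 1.38 on log2(FPKM + 0.1). Adam23 was not tested at a mean FPKM of at least 5. Over all genes, 6 passed by edgeR, and 9 to 16 when a library was left out. The count became 53 by DESeq2, 22 in the male libraries alone, 2 at a mean FPKM of at least 5 and, by edgeR with a replicate block, 0 (702 at an unadjusted p under 0.05). With that block the log2 fold change of Adam23 was 1.45. Same-numbered libraries did not deviate together (correlations of −0.0478, 0.0154 and 0.0953 across 13673 genes), so the numbers were not taken as pairs. Sign changes near 0 were found for Adam22 without Myrf-kd 2 (−0.02) and without WT 1 (−0.01). Lgi2, at −0.17 to 0.11 over the omissions, became 0.01 with total count scaling, 0.08 in the male libraries, 0.11 without Myrf-kd 3 and 0.06 without WT 1. Lgi3, at −0.0032 and −0.08 to 0.11 over the omissions, became 0.03 with total count scaling, 0.0012 with the block, 0.07 without Myrf-kd 3, 0.11 without WT 1 and 0.02 by limma on log2(FPKM + 1) and on log2(FPKM + 0.1). Lgi4 became 0.02 in the male libraries. Across all alternatives Adam11 stayed between −0.16 and −0.03 and Lgi1 between 0.0003 and 0.07. The median of the Kv1 genes was 0.17 without WT 2. By level per length of coding transcript Adam23 ranked 3 in Myrf-kd and 5 in WT, against ranks 5 and 7 in FPKM.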

Other observations

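In Kcna2 and Kcna6, both Kv1 channel genes, and in Adam9, libraries of 1 group lay further apart than the group means; Kcna2 was named after its values were seen. Kcna2 was at 85.3, 127 and 109 CPM in Myrf-kd against 128, 125 and 46.9 CPM in WT. Kcna6 was at 25.4, 66.5 and 73.5 CPM in Myrf-kd against 31.5, 76.4 and 30.7 CPM in WT. Adam9, a catalytic family member, was at 131, 88.6 and 74.9 CPM in Myrf-kd against 86.5, 140 and 89.4 CPM in WT. In Kcna2, Kcna6 and Adam9 the groups overlapped, and none passed by edgeR (adjusted p = 0.956, 0.905 and 0.930).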
